A study of Mus musculus with 8 samples.

Results

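The regions described here are all 5689 rows of the H3K9me1 list that lie on mouse chromosomes 1 and 2. Chromosome 1 held 1988 of them and chromosome 2 held 3701. The list held 42704 rows on the 21 chromosomes used here (the autosomes, X and Y), and any rows on other sequences were not counted. The study had carried out chromatin immunoprecipitation with sequencing (ChIP-seq) against histone H3 with 1, 2 or 3 methyl groups at lysine 9, named H3K9me1, H3K9me2 and H3K9me3, in mouse embryonic fibroblasts (MEFs), with 2 replicates for each mark and 2 for the sonicated input DNA. The cells are labelled wild type in all 8 samples. In the study's methods they are Eset1-conditional cells (E1c), a single clone selected for high Cre activity and used here without deletion of Eset1, so every map comes from 1 clonal line that carries the conditional allele and the tamoxifen-inducible Cre. Each mark has 1 region list for both replicates, holding a chromosome, a start and an end. No replicate values, scores or read depths accompany the regions, so no test between samples was possible, and intervals below are 95% Wilson intervals that cover counting error only. The lists hold no expression values, so the fibroblast label could not be checked against marker genes.

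Methyl groups are added to H3K9 by SET-domain enzymes, among them the Suv39h pair, Eset1 (Setdb1) and the G9a and Glp pair. H3K9me3 is best known from constitutive heterochromatin and silenced repeats, and H3K9me2 from silent domains within euchromatin. H3K9me1 is the substrate of the higher states and has also been mapped to transcribed genes, so its position along genes and its overlap with the other states are of interest.

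Regions that met no other mark are shown first by the 300 bases before the gene start at 3 genes of chromosome 2, because these windows lie whole within an H3K9me1 region and outside the transcript. They belong to Eng, the endothelial and fibroblast surface protein endoglin (chr2:32646295-32646594, plus strand), Psmf1, an inhibitor of the proteasome (chr2:151744187-151744486, minus strand), and Chrna4, a nicotinic receptor subunit (chr2:181043547-181043846, minus strand). All sequences are from GRCm38 (mm10), written 5′ to 3′ on the strand of the gene, with each CpG dinucleotide in capitals.
Eng: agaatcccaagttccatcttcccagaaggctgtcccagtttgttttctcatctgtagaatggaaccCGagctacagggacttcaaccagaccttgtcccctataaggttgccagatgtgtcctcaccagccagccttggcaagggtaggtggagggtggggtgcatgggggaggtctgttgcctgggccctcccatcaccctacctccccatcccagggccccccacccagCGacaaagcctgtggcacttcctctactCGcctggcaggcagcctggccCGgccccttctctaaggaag
Psmf1: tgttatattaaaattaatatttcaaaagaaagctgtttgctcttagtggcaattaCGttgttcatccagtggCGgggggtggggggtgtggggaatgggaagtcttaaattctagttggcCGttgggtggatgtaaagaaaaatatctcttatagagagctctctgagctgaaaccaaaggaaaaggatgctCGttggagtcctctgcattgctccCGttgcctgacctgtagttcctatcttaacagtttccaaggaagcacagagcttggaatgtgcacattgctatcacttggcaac
Chrna4: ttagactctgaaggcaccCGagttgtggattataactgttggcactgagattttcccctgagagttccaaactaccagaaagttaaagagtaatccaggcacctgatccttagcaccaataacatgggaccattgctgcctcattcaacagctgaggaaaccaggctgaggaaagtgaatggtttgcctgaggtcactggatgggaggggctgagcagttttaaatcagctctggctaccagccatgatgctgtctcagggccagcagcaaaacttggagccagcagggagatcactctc

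The number of CpG dinucleotides in these windows was 4 for Eng, 5 for Psmf1 and 1 for Chrna4. The next pair, chosen after the values were seen, shows gene starts that the H3K9me1 regions left out. Parp1, the poly(ADP-ribose) polymerase (chr1:180568624-180568923, plus strand), and Dnmt3b, a de novo DNA methyltransferase (chr2:153649150-153649449, plus strand), had large parts of their gene bodies in H3K9me1 regions, while the nearest region lay 2.37 kb from the Parp1 window and 1.15 kb from the Dnmt3b window.
Parp1: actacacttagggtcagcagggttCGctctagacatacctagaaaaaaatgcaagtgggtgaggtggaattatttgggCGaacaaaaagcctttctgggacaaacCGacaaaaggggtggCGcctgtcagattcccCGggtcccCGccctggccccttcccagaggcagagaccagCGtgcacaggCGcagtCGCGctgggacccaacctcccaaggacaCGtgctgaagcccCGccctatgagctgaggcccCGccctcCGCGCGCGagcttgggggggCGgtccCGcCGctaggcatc
Dnmt3b: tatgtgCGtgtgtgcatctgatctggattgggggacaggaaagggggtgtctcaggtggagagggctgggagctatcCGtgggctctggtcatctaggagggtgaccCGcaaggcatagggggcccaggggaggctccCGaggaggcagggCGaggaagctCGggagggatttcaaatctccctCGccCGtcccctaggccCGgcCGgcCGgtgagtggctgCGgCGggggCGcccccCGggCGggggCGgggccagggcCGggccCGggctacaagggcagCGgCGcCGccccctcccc

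The Parp1 window held 20 CpG dinucleotides and the Dnmt3b window 22, several times as many as the windows inside H3K9me1 regions. The last pair comes from the few places where H3K9me1 lay together with the other marks. Both are intergenic windows on chromosome 1, printed on the plus strand, namely the middle of the part shared with H3K9me2 in the region that shared most with that mark (chr1:150183600-150183899) and the middle of the part shared with H3K9me3 in the region that shared most with H3K9me3 (chr1:150519600-150519899).
H3K9me1 with H3K9me2: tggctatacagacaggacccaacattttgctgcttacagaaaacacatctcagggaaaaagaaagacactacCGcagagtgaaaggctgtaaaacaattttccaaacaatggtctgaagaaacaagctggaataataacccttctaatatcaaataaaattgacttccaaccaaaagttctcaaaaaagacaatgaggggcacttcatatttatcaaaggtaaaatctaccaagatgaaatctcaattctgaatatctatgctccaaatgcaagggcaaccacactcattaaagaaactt
H3K9me1 with H3K9me3: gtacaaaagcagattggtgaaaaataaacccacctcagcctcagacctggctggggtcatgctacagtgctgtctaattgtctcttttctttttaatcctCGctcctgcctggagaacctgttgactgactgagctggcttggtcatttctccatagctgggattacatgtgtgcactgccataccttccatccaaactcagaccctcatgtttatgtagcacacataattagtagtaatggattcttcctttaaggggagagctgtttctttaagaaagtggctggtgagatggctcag

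Each of these 2 windows held 1 CpG, and the first was soft-masked (marked as repeat in the reference) over 99.0% of its bases and the second over 55.3%. Among the 4 windows picked by the same rule the share ran from 10% to 99.0%, so such places were not uniformly repetitive. The regions around this last pair each met both H3K9me2 and H3K9me3, so the labels name the mark used to pick each window. Both windows of the pair lie in 1 block of chromosome 1 that is described with the overlaps.

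H3K9me1 regions covered 32.7 Mb of chromosomes 1 and 2, or 8.83% of their sequence. Coverage was unequal between the 2 chromosomes, with 11.1 Mb (5.76%) on chromosome 1 and 21.6 Mb (12.1%) on chromosome 2. On the same chromosomes the H3K9me2 list held 1304 regions (2.29% of the sequence) and the H3K9me3 list 2033 (5.26%). There were thus 4.36 H3K9me1 regions for each H3K9me2 region. The 2 chromosomes were chosen because H3K9me1 regions far outnumber H3K9me2 regions there. This ratio and its contrast with other chromosomes therefore follow from the choice and are no separate result. The lists as a whole were very uneven. On 9 chromosomes every mark covered at least 5% of the sequence (called broadly covered below), and there the H3K9me1 list held 36774 regions, covered 28.8% and had 1.33 regions for each H3K9me2 region. The other 10 chromosomes together held 241 H3K9me1 regions (0.237% of their sequence). Why chromosomes differ so strongly in these lists was not tested.

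Region boundaries fell at multiples of 750 bp, which sets the smallest width and gap. The median width of the H3K9me1 regions was 3.75 kb on each of the 2 chromosomes and 4.50 kb on the broadly covered chromosomes. The upper end differed more, with a 90th percentile of 12 kb against 17.25 kb. Regions of 30 kb or more numbered 50 (0.879%) on chromosomes 1 and 2 and made up 4.21% on the broadly covered chromosomes, and single bins numbered 325 (5.71%). Individual H3K9me1 regions were therefore not much narrower here at the median, and the lower coverage went with wider spaces between them.

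The gap from 1 H3K9me1 region to the next had a median of 12 kb on chromosome 1, 6.75 kb on chromosome 2 and 4.50 kb on the broadly covered chromosomes. Another region lay within 10 kb of 4303 regions (75.6%, 74.5 to 76.7), which was 65.0% on chromosome 1 and 81.3% on chromosome 2, against 89.0% on the broadly covered chromosomes. The regions were thus grouped in places and separated by long empty stretches. When regions up to 10 kb apart were joined, 2517 clusters resulted, of which 1386 were single regions. The 275 clusters of 5 regions or more held 2108 regions (37.1%), with 21.7% of the regions of chromosome 1 and 45.3% of those of chromosome 2 in such clusters. The largest cluster had 22 regions, while the largest on the broadly covered chromosomes had 176.

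**Figure D1:**
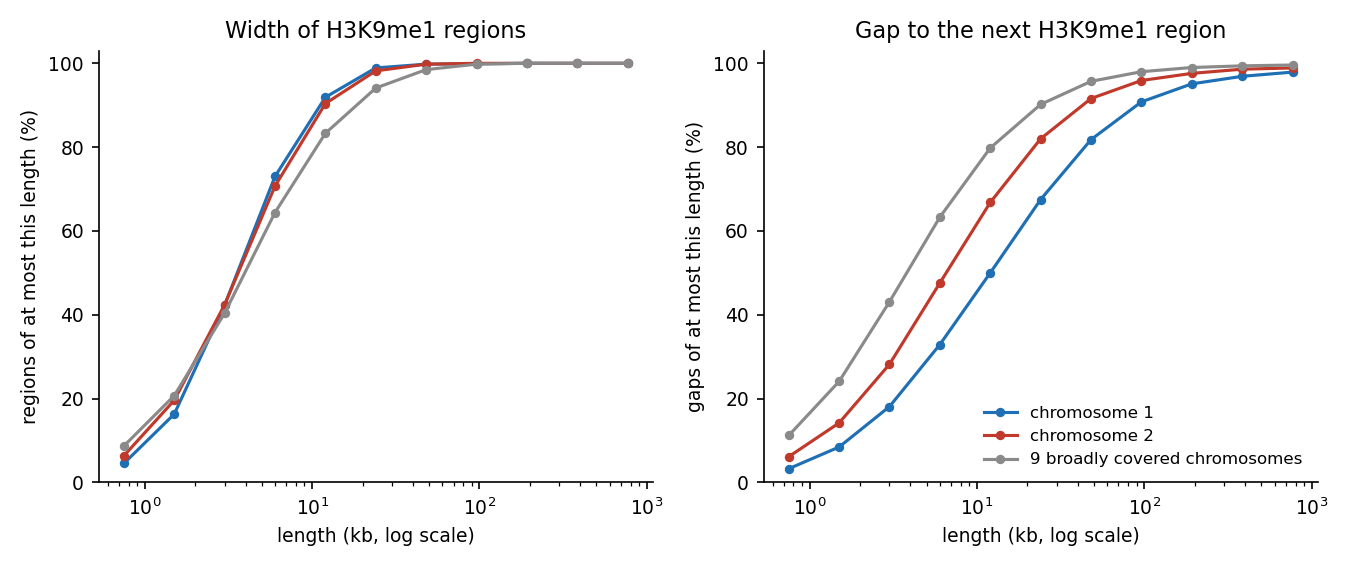
Cumulative share of H3K9me1 regions by width (left) and of gaps between neighbouring regions by length (right), both against length in kb on a log scale, for chromosome 1, chromosome 2 and the 9 broadly covered chromosomes. The width curves lie close together up to 3 kb (42.3%, 42.4% and 40.4%), whereas gaps of at most 24 kb make up 67.5% on chromosome 1, 82.0% on chromosome 2 and 90.2% on the broadly covered chromosomes.

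The widest clusters of chromosome 2 each held several protein-coding genes. The first (27080251 to 27433500, 353.25 kb, 22 regions) was 77.7% covered and contained Adamtsl2, Fam163b, Dbh (dopamine beta-hydroxylase, which makes noradrenaline), Sardh (sarcosine dehydrogenase) and Vav2, a guanine nucleotide exchange factor. It was 73.8% intronic, shared 1.5 kb with H3K9me2 and shared no base with H3K9me3. The second (157688251 to 158026500, 338.25 kb, 20 regions) covered Ctnnbl1, a spliceosome-associated protein, Vstm2l and Tti1, with 8.43% of its length in H3K9me2 and 1.77% in H3K9me3. The third (180261751 to 180585000, 323.25 kb, 19 regions) was 59.1% intergenic and contained Gata5, a transcription factor, and Ntsr1, a neurotensin receptor. It had 25.8% of its length in H3K9me2 and 5.34% in H3K9me3. The widest clusters therefore ranged from almost free of the other marks to partly shared.

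On chromosome 1 the widest cluster (150134251 to 150562500, 428.25 kb) had 12 regions and was 90.2% covered. It contained Pdc (phosducin, of photoreceptors), Odr4, Tpr (a nuclear pore basket protein) and Prg4 (lubricin), and was 64.9% intergenic. The next 2 lay over Rps6kc1 (190669501 to 190872000, 16 regions, 77.7% intronic), with 34.4% of its length in H3K9me2 and 18.9% in H3K9me3, and over Rbbp5, Tmem81, Cntn2 and Nfasc (132503251 to 132678750, 12 regions), with 12.4% and 0.855%, the last 2 genes being neuronal adhesion proteins. The longest stretch without an H3K9me1 region was 9467.25 kb on chromosome 1 (24030751 to 33498000), which was 75.4% intergenic and held 17 protein-coding genes, among them the collagen genes Col9a1 and Col19a1 and the adhesion receptor gene Adgrb3. On chromosome 2 it was 6793.5 kb (94519501 to 101313000), which was 79.6% intergenic and held 3 protein-coding genes, including Lrrc4c, a synaptic adhesion protein.

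In windows of 5 Mb, coverage by H3K9me1 followed gene density and base composition. Over the 76 windows of chromosomes 1 and 2, Spearman's rank correlation was 0.886 (Pearson's r 0.841) with GC content, 0.803 (0.636) with the number of protein-coding gene starts, 0.756 (0.626) with H3K9me2 coverage and 0.231 (0.0852) with H3K9me3 coverage. These are descriptions, since neighbouring windows are not independent and GC content and gene density go together. The most covered windows were on chromosome 2, with 54.4% at 25 to 30 Mb and 49.4% in the last window, from 180 Mb to the end. No H3K9me1 region was listed in 4 windows, at 25 to 30 and 140 to 145 Mb of chromosome 1 and at 40 to 45 and 95 to 100 Mb of chromosome 2, whose GC content lay between 36.9% and 37.3%. Some windows departed from gene density. At 170 to 175 Mb of chromosome 1, 114 protein-coding gene starts went with 6.69% coverage. The clearest case was on chromosome 2. At 85 to 90 Mb of chromosome 2, which contains olfactory receptor genes, 225 protein-coding gene starts lay in a window with 5 H3K9me1 regions and 0.210% coverage, and its GC content was 37.3%. Another departed from GC content, since at 170 to 175 Mb of chromosome 2 (46.4% GC) H3K9me1 covered 5.27% and H3K9me3 covered 49.3%.

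**Figure D2:**
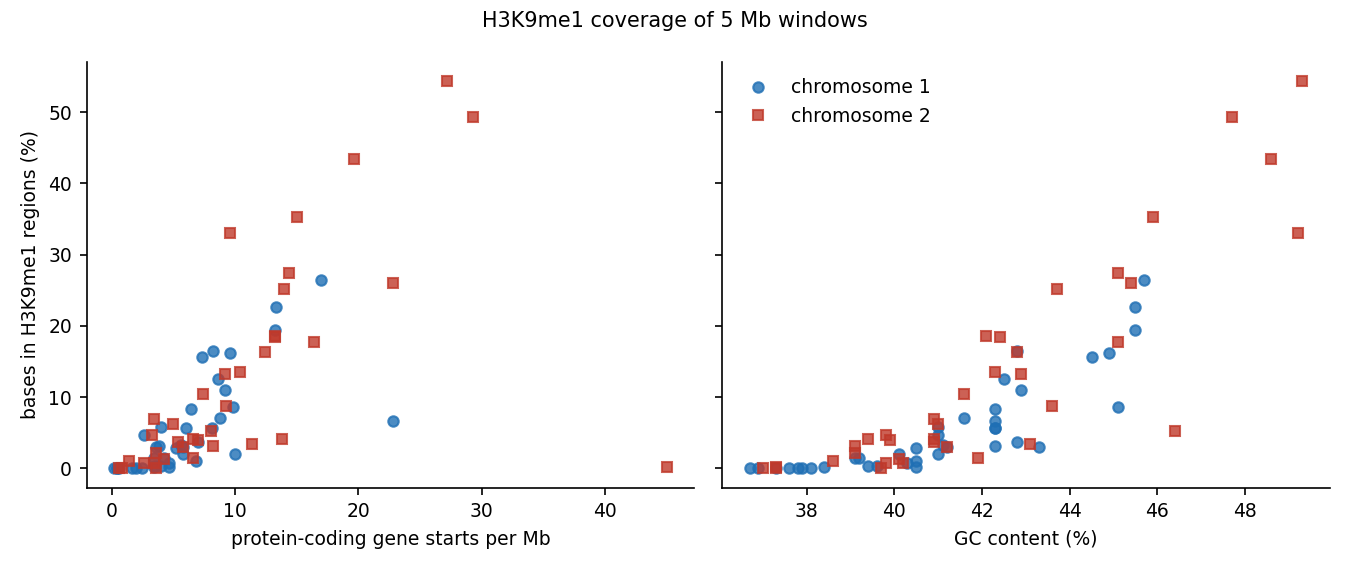
Percent of bases in H3K9me1 regions in 76 windows of 5 Mb on chromosome 1 (circles) and chromosome 2 (squares), against protein-coding gene starts per Mb (left) and GC content in percent (right). Coverage rises with both, up to 54.4%, and the square at 45.0 gene starts per Mb near the floor of the left panel is the window at 85 to 90 Mb of chromosome 2, with 0.210% covered.

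The sequence within the H3K9me1 regions had 47.1% GC, against 41.6% for the 2 chromosomes. It held 11.4 CpG dinucleotides per kb against 8.10, and 22.5% was soft-masked against 33.4%. H3K9me1 regions were thus richer in GC and poorer in annotated repeats than their chromosomes. Among the classes by position described next, GC content ranged only from 46.3% to 47.9%, and the soft-masked share was 28.1% for intergenic regions and between 18.5% and 22.0% for the others.

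Each region was assigned to the first class it touched, with promoters (up to 1 kb from a start site of any transcript) first, then 5′ UTRs, 3′ UTRs, other exons, introns and intergenic sequence. By this rule 1530 regions (26.9%, 25.8 to 28.1) were at a promoter, 96 (1.69%) in a 5′ UTR, 561 (9.86%) in a 3′ UTR, 801 (14.1%) in an exon, 1243 (21.8%) in an intron and 1458 (25.6%) were intergenic. Because a wide region touches several classes, the share at a promoter rose to 42.1% for regions of at least 5 kb. The promoter share on the broadly covered chromosomes was 26.5%, while 3′ UTR regions (6.33%) and exon regions (10.5%) made up less and intergenic regions (32.1%) more.

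Counted by bases, which does not depend on width, 53.3% of the H3K9me1 sequence was intronic and 28.0% intergenic, whereas introns make up 40.5% and intergenic sequence 50.2% of the 2 chromosomes. The share of each class that lay in an H3K9me1 region was 24.8% for 3′ UTRs, 20.3% for other exons, 15% for promoters, 13% for 5′ UTRs, 11.6% for introns and 4.92% for intergenic sequence. The 3′ parts of genes were thus covered about 5 times as densely as the sequence between genes. On the broadly covered chromosomes the order at the top was the same, with 52.8% of 3′ UTR bases, 46.9% of exon bases and 21.1% of intergenic bases covered.

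The profile along protein-coding genes showed H3K9me1 to be low at gene starts and higher towards gene ends. Of the 3051 protein-coding genes of chromosomes 1 and 2, 271 (8.88%, 7.92 to 9.94) had the base at their 5′ end in an H3K9me1 region. At 5 kb upstream the share was 17.5% (16.2 to 18.9) and at 5 kb downstream 18.7% (17.4 to 20.1). At the 3′ end of the gene it was 25.1% (23.6 to 26.7), and the highest value in the profile was 26.6%, at 1.5 and 2 kb before the gene end. Both chromosomes showed this order, with 6.71% at starts, 10.6% at 5 kb upstream and 20.4% at ends on chromosome 1, and 10.3%, 22.1% and 28.2% on chromosome 2. On the broadly covered chromosomes, with 9632 protein-coding genes, the corresponding values were 19.3%, 43.7% and 48.5%.

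The low point at gene starts belonged to starts rich in CpG, defined as an observed over expected CpG ratio of at least 0.6 and a GC content of at least 50% within 500 bp on either side. Such starts are typical of housekeeping genes. At these 1342 starts coverage by H3K9me1 was 1.42%, against 19.5% at 5 kb on either side. At the 1709 CpG-poor starts it was 14.7%, against 16.0% upstream and 18.1% downstream. The Parp1 and Dnmt3b windows printed above are examples of the first kind and the Eng window of the second. H3K9me2 covered 2.75% and H3K9me3 covered 3.67% of all gene starts, and neither showed a low point there, with 2.85% and 3.51% at 5 kb upstream. Whether regions are harder to call in bins of high CpG content was not tested.

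In the 1522 protein-coding genes of 20 kb or more, coverage by H3K9me1 rose along the gene body, from 8.56% of bases in the first 5% of the gene to 14.3% at 10 to 15%, 20.5% at 45 to 50% and 28.7% in the last 5%. In 4 equal parts of the gene, from start to end, it was 13.2%, 18.7%, 22.2% and 26.8%. The 4344 genes of this length on the broadly covered chromosomes had 36.2%, 44.8%, 49.0% and 53.2%, a rise in the same direction from a higher level.

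**Figure D3:**
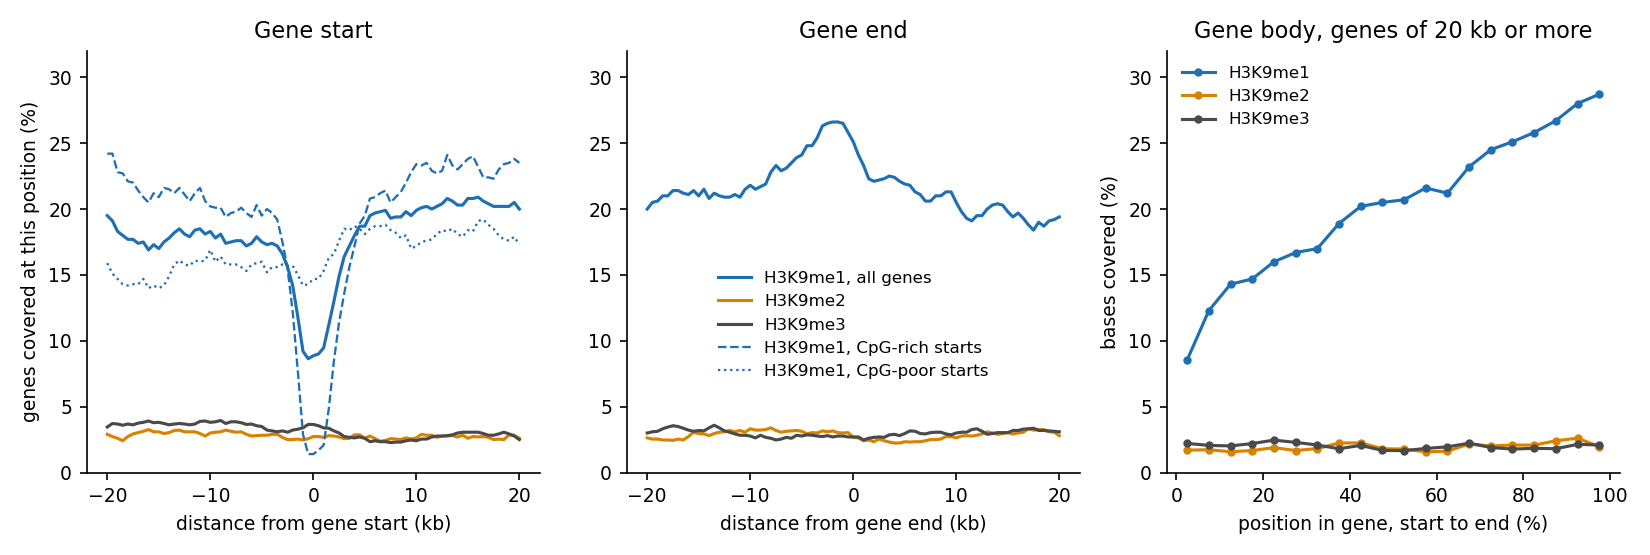
Coverage of protein-coding genes on chromosomes 1 and 2 by the regions of each mark, in percent of genes against distance in kb from the gene start (left) and gene end (middle), and in percent of bases along genes of 20 kb or more (right). H3K9me1 falls to 8.88% at gene starts (1.42% at CpG-rich starts, dashed, and 14.7% at CpG-poor starts, dotted) and reaches 28.7% in the last 5% of the gene, while H3K9me2 and H3K9me3 stay under 5% throughout.

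In all, 3761 regions (66.1%) met the body of a protein-coding gene, and 1531 of the 3051 genes (50.2%) had some H3K9me1 in their body. Of the 3051 genes, 555 (18.2%) were covered over more than 50% of their length. A region came within 1 kb of a start site in 1505 of all 7248 annotated genes (20.8%), where the share over all chromosomes was 21.4%. For protein-coding genes it was 917 of 3051, or 30.1% (28.5 to 31.7), against 28.3% over all chromosomes. These shares lie close to those of the whole list, which averages broadly covered chromosomes (54.4% of protein-coding genes) with nearly empty ones (0.551%). Chromosome 1 had 25.1% and chromosome 2 had 33.3%. Among the other gene types the share was 13.4% (10.9 to 16.4) for long intergenic non-coding RNA genes, 12.5% (10.9 to 14.2) for pseudogenes and 23.7% for genes annotated as antisense.

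Of these 917 genes, the 271 named above (29.6%) had their 5′ end base inside a region. The 917 were counted by any annotated start site, so how often a region lay over the start site that counted was not measured. Many genes have several annotated start sites, of which 1 suffices for the count. When only the outermost start of each gene was used, the share of all genes fell from 20.8% to 13.2%. By gene length, H3K9me1 was near a start site in 22.3% (19.8 to 24.9) of protein-coding genes under 10 kb, 34.9% (32.3 to 37.6) of those of 10 to 50 kb, 33.3% of those of 50 to 200 kb and 28.0% of longer ones. By this wider measure CpG-rich starts had 31.4% (29.0 to 34.0) and CpG-poor starts 29.0% (26.9 to 31.2), a count that takes any annotated start site of the gene. At 1 kb from the 5′ end itself the contrast was still present, with 2.91% upstream and 2.09% downstream of CpG-rich starts against 14.2% and 15.3% for CpG-poor ones.

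The 8 genes with most H3K9me1 bases were all long, as a ranking by bases favours. Ralgps1, an exchange factor for Ral GTPases, had 158 kb of its 238 kb body in 14 regions (66.2%). Dennd1a, an exchange factor for Rab35 in endocytic traffic, had 152 kb in 21 regions (31.1% of 488 kb). Next came Med27, a subunit of the Mediator complex (143 kb, 80.2%), Rps6kc1, a member of the ribosomal S6 kinase family (143 kb, 67.4%), Ctnnbl1 (140 kb, 91.0%), Vav2 (129 kb, 78.0%), Garnl3, with a GTPase-activating domain (127 kb, 87.3%), and Mapkap1, the Sin1 subunit of the mTORC2 kinase complex (125 kb, 57.3%). None of these 8 genes had H3K9me2 or H3K9me3 within 1 kb of a start site, but neither did 2809 of all 3051 protein-coding genes. All 8 had H3K9me1 there, against 30.1% of all, which a ranking by H3K9me1 bases favours. None of the 8 had the 5′ end base in a region, where the share of all was 8.88%. All but Rps6kc1 lie on chromosome 2.

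Among genes of 20 kb or more, 3 on chromosome 2 lay whole within a single H3K9me1 region. They were Lbp, the lipopolysaccharide-binding protein made by the liver (region of 33 kb), Plcb2, a phospholipase C (24.75 kb), and Strc, stereocilin of inner ear hair cells (32.25 kb). Tpr (95.8%), Fer1l4 (95.6%), Xkr7 (95.2%), Odr4 (95%) and Edem2, a factor of glycoprotein degradation in the endoplasmic reticulum (93.8%), followed. Xkr7 was the exception at its promoter, which had H3K9me2 and no H3K9me1. Genes with nearly all of their length covered thus included tissue-restricted ones (Lbp, Strc) as well as ones used in most cells (Tpr, Edem2).

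Gene groups differed in how many of their members had H3K9me1 near a start site, to be read against 30.1% of all protein-coding genes of the 2 chromosomes. The counts describe groups of unequal size and neighbouring genes, and no group was tested. For regulators of chromatin it was 14 of 26 (53.8%, 35.5 to 71.2), including Ehmt1, which encodes the H3K9 methyltransferase Glp (29.4% of its body covered), but not Suv39h2. Parp1 had 80.4% of its body covered and Dnmt3b 68.6%. The median covered share of the gene body was 15.4% in this group and 0.183% over all 3051 genes. The latter is near 0 because only 50.2% of all genes had any H3K9me1 in the body, against 73.1% of this group. Gene length was not matched, and a body was met in 28.4% of genes under 10 kb and 59.0% of those of 10 to 50 kb. Sp100, Sp110 and Sp140, speckled proteins of nuclear bodies encoded side by side on chromosome 1, were the 3 genes of the group that also had H3K9me3 near a start site.

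Genes chosen by channel and receptor symbols had H3K9me1 near a start site in 16 of 38 cases (42.1%, 27.9 to 57.8). The 16 include the broadly expressed Trpm7 and also Trpc4ap, a channel-associated protein that is itself no channel. Kcnt1, a potassium channel of neurons, had 86.2% of its body covered, Chrng (a muscle acetylcholine receptor subunit) 84.0% and Chrna4 79.1%. This group also had H3K9me2 near a start site at 8 genes and H3K9me3 at 7, where the shares over all protein-coding genes of the 2 chromosomes were 4.59% and 4.92%. For Kcnt1 and Chrna4 H3K9me2 was present, and for Chrng neither. The Chrna4 window printed above lies in an H3K9me1 region that met no other mark, so its H3K9me2 lay at another annotated start site.

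Among 2 families of secreted defence proteins many genes had H3K9me1 near a start site. It was present in 12 of 14 Wfdc genes (85.7%, 60.1 to 96), which encode small protease inhibitors, and in 7 of 13 beta defensin genes (53.8%, 29.1 to 76.8), or 7 of the 11 on chromosome 2 and 0 of the 2 on chromosome 1. Wfdc13, Wfdc6a, Wfdc6b, Defb25, Defb29 and Defb45 lay whole within a region. These genes are short, from 0.698 kb (Defb25) to 6.21 kb (Defb45) among the defensins lying whole in a region, and regions from 4.5 kb to 24 kb span them. H3K9me2 was near a start site of 4 Wfdc genes and 2 defensin genes, and H3K9me3 of 2 Wfdc genes (Wfdc9 and Wfdc11) and no defensin gene. Many of these genes are neighbours, so they do not count as independent cases.

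Fibroblast matrix and surface genes had H3K9me1 near a start site in 8 of 30 cases (26.7%, 14.2 to 44.4), close to the share of all protein-coding genes. Sulf2, a heparan sulfate sulfatase, had 64.7% of its body covered, Prrx2, a mesenchymal homeobox factor, 60.0%, Eng 46.2% and Itga6, the alpha6 integrin, 36.1%, whereas Col3a1 and Fn1 had no H3K9me1 near a start site or in the gene body. Fbn1, fibrillin 1, had none near a start site and 55.0% of its 207 kb body covered. Genes of DNA replication and mitosis had it in 6 of 28 cases (21.4%), among them Cdc25b (45.5% of the body), Cenpf (37.7%), Cdca7 (36.3%) and Mcm10 (32.5%). The remaining housekeeping groups were small, with 3 of 8 NADH dehydrogenase genes (Ndufaf5, an assembly factor, Ndufa10 and Ndufs3), 2 of 7 proteasome genes (Psmf1 and Psmd5) and 1 of 7 ribosomal protein genes (Rpl12).

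Other gene families had few or no genes with H3K9me1 near a start site, which does not hold for all their gene bodies. Some H3K9me1 lay in the body of 8 of 9 Ugt1a genes and 12 of 32 zinc finger Zfp genes, against 50.2% of all protein-coding genes. Of 307 olfactory receptor genes, 5 (1.63%, 0.698 to 3.76) had it near a start site, and all 5 also had H3K9me2, with H3K9me3 as well at Olfr142, Olfr1271 and Olfr1272. It was found in 0 of 13 interferon-inducible Ifi200 genes (upper limit 22.8%), 0 of 11 serpin b genes (25.9%), 1 of 14 genes of the interleukin 1 family and its receptors (Il1f10), 3 of 32 zinc finger Zfp genes (Zfp512b, Zfp661 and Zfp106) and 2 of 9 Ugt1a genes, which share their last exons. The single match among 12 genes whose symbols begin with Cst was Cstf3, an mRNA cleavage factor and not a cystatin. H3K9me3 lay near a start site of 4 zinc finger Zfp genes, none of them among the 3 with H3K9me1. It also lay near a start site of 12 olfactory receptor genes, of which only Olfr142, Olfr1271 and Olfr1272 had H3K9me1 too. In 2 further groups H3K9me3 was present while no gene had H3K9me1 near a start site. Of 10 genes listed as imprinted, whose imprinting in mouse was not checked here, none had H3K9me1 near a start site. H3K9me3 was there at 4 of them (Gnas, Blcap, Nnat and Wt1). None of the 10 genes of the Hoxd cluster had H3K9me1 and 6 had H3K9me3, including Hoxd3, Hoxd4 and Evx2. The share of all protein-coding genes with H3K9me3 was 4.92%, and neighbouring genes in these groups do not count as independent cases.

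**Figure D4:**
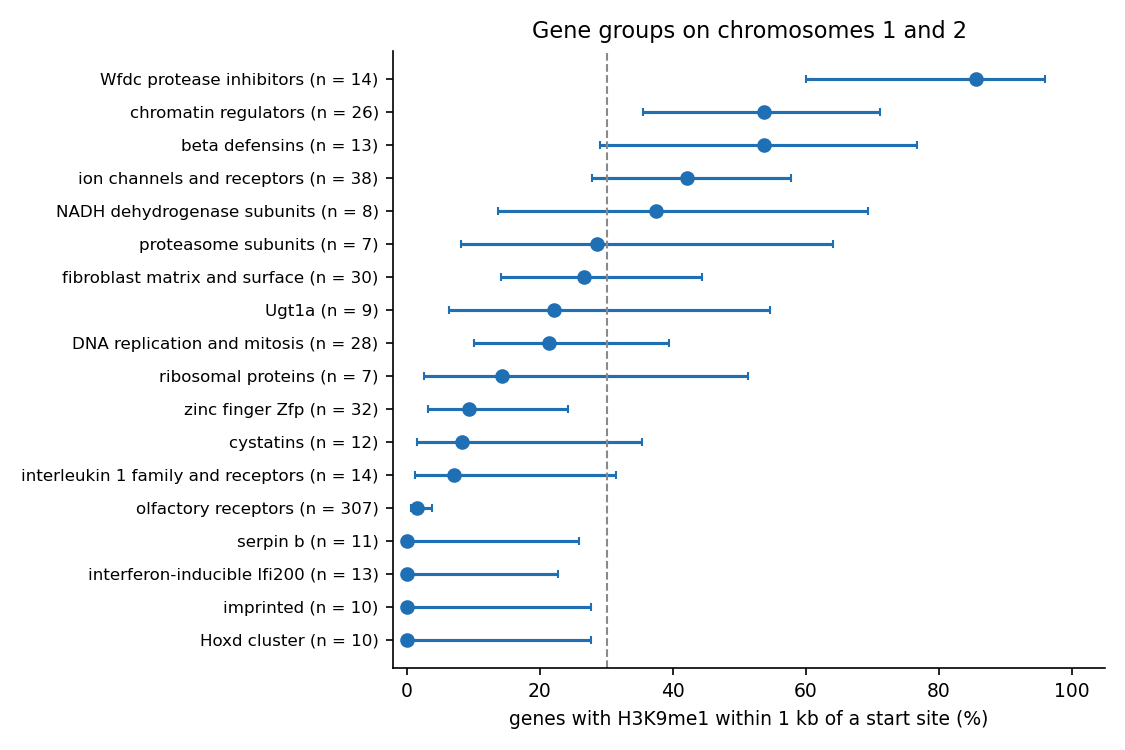
Percent of genes with an H3K9me1 region within 1 kb of a start site in 18 gene groups on chromosomes 1 and 2, with 95% Wilson intervals (bars) and the share of all protein-coding genes of these chromosomes (dashed line, 30.1%). Groups above the line include Wfdc protease inhibitors (85.7%) and chromatin regulators (53.8%). Groups below it include olfactory receptors (1.63%), zinc finger Zfp genes (9.38%) and the Ifi200, serpin b, imprinted and Hoxd groups (0%). Intervals cover counting error only and groups hold neighbouring genes, so an interval clear of the line is no test.

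Few H3K9me1 regions met another mark. At least 1 bp was shared with H3K9me2 by 574 regions (10.1%, 9.33 to 10.9) and with H3K9me3 by 223 (3.92%, 3.45 to 4.46). Both marks were met by 161 regions (2.83%), H3K9me2 alone by 413 (7.26%) and H3K9me3 alone by 62 (1.09%), and 5053 (88.8%, 88.0 to 89.6) met neither. On the broadly covered chromosomes 47.4% met H3K9me2, 35.6% met H3K9me3 and 50.1% met neither, where the other marks also cover far more sequence. Seen from the other lists, 520 of the 1304 H3K9me2 regions (39.9%) and 198 of the 2033 H3K9me3 regions (9.74%) met H3K9me1. Even where H3K9me1 outnumbered H3K9me2, most H3K9me2 regions therefore lay outside it.

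H3K9me2 was denser within H3K9me1 regions than along the chromosomes, since it covered 8.07% of their bases against 2.29% of all bases, a ratio of 3.52. The ratio was 4.87 on chromosome 1 and 2.76 on chromosome 2. H3K9me3 covered 3.33% of H3K9me1 bases against 5.26% of all bases, a ratio of 0.633. Here the 2 chromosomes stood on opposite sides of 1, with 5.96% against 4.28% on chromosome 1 (ratio 1.39) and 1.99% against 6.32% on chromosome 2 (0.314). The value for chromosome 1 rested on a single place. Without the widest cluster, at 150134251 to 150562500, it was 3.86% against 4.16% (ratio 0.930), while the ratio for H3K9me2 on chromosome 1 was 3.95. On chromosome 2 the H3K9me3 background was itself uneven. It covered 14.5% to 49.3% of the 5 Mb windows from 155 to 180 Mb and at most 8.73% of any other window. Whether the low ratio holds outside that part was not tested.

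**Figure D5:**
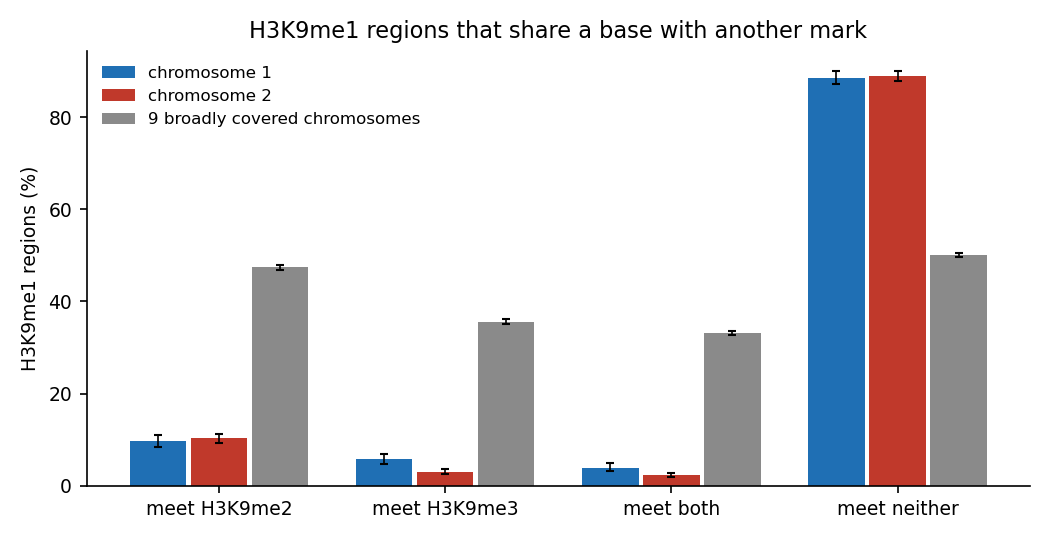
Percent of H3K9me1 regions that share at least 1 bp with H3K9me2, with H3K9me3, with both or with neither, for chromosome 1, chromosome 2 and the 9 broadly covered chromosomes. Bars start at 0 and error bars are 95% Wilson intervals. Regions that meet neither mark make up 88.5% on chromosome 1, 89.0% on chromosome 2 and 50.1% on the broadly covered chromosomes.

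Where H3K9me1 met H3K9me2, the shared length had a median of 3 kb, and 229 of the 574 regions lay whole within H3K9me2. For H3K9me3 the median was 2.25 kb, and 116 of 223 lay whole within it. The regions that met H3K9me2 were wider (median 5.25 kb) than those that met neither (3.75 kb), and a wider region has more room to meet another. The rest lay far from the other marks. The 5115 regions that did not meet H3K9me2 were a median of 122 kb from the nearest such region, and the 5466 that did not meet H3K9me3 a median of 198 kb. Within 10 kb of an H3K9me2 region lay 9.95% of the former, and within 10 kb of an H3K9me3 region 4.94% of the latter.

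By position, the shares of regions with and without another mark differed most in 3 classes, intergenic sequence, 3′ UTRs and exons. No test was made, because neighbouring regions are not independent and the intervals cover counting error only. Width enters too, since a wide region touches several classes and regions that met H3K9me2 were wider (median 5.25 kb against 3.75 kb). Of the 636 regions with H3K9me2 or H3K9me3, 39.2% (35.4 to 43.0) were intergenic, 4.40% (3.06 to 6.29) in a 3′ UTR and 10.1% (7.96 to 12.6) in an exon, against 23.9% (22.8 to 25.1), 10.5% (9.73 to 11.4) and 14.6% (13.6 to 15.6) of the 5053 with neither. Their shares at promoters were close, with 26.3% and 27%. Regions that met H3K9me3 had 44.5% GC and 35.1% soft-masked sequence, against 47.0% and 22.1% for regions that met neither, and those that met H3K9me2 had 47.1% and 24.3%. Those with H3K9me3 were thus nearest to the composition of the whole chromosomes. Reads from repeats may be placed with less certainty, and the part of this in the overlaps was not tested.

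Counted by gene, the other marks went with H3K9me1 to different degrees. Each mark was taken at any annotated start site, so the marks of a gene need not lie at the same promoter. A gene with more start sites also has more chances to carry each mark. Of 92 protein-coding genes with only H3K9me2 of the other marks near a start site, 54 (58.7%, 48.5 to 68.2) also had H3K9me1, as did 31 of 48 with both other marks (64.6%, 50.4 to 76.6). With only H3K9me3 it was 10 of 102 (9.80%, 5.41 to 17.1), and with neither 822 of 2809 (29.3%, 27.6 to 31.0). The share was thus higher with H3K9me2, alone or with H3K9me3, and lower with H3K9me3 alone, than with neither mark. No test was made, and neighbouring genes are not independent.

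The largest overlaps were gathered in the widest cluster of chromosome 1, where H3K9me2 covered 68.3% and H3K9me3 59.7% of 428.25 kb. Its intergenic region at 150166501 to 150234000 (67.5 kb) had 64.5 kb in H3K9me2 and 53.25 kb in H3K9me3. The region at 150498751 to 150562500 (63.75 kb, 96.9% intergenic) had 62.25 kb and 61.5 kb. The region around Pdc (150280501 to 150339000, 58.5 kb) lay whole in H3K9me3 and had 56.25 kb in H3K9me2. By contrast the widest of all, at 150395251 to 150496500 (101.25 kb), which holds Prg4 and most of Tpr, had 42.75 kb in H3K9me2 and 23.25 kb in H3K9me3. Its gene Prg4 had both other marks near a start site and Tpr had neither, so the marks were unevenly spread along it. The windows printed at the start from 150183600 and from 150519600 come from the first pair.

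On chromosome 2 the widest region (180348001 to 180431250, 83.25 kb, 75.5% intergenic) had 42.75 kb in H3K9me2 and 17.25 kb in H3K9me3, whereas the next widest, in Garnl3 (33018751 to 33098250, 79.5 kb) and in Med27 (29459251 to 29529750, 70.5 kb), shared no base with either. A region of 40.5 kb at 83953501 to 83994000 lay whole in H3K9me3 and had 36 kb in H3K9me2. It holds 7 gene models, Gm13691 and Gm13693 to Gm13698, each of 2493 bp and with pairwise identities of at least 99.96%. Reads from such copies cannot be assigned to 1 of them, so the marks there are uncertain for each copy.

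There were 95 protein-coding genes with H3K9me1 and another mark near a start site, not necessarily the same one. In 61 of them the other mark filled the whole window around 1 start site. Because so many tied, the 10 named are the first by position, all on chromosome 1. Cxcr1 (a chemokine receptor), Olfr1411, Olfr1410, Ankmy1 and Kif1a, a kinesin of axonal transport, had H3K9me2. Sp100 had H3K9me3, and Resp18, an endocrine secretory protein, G530012D18Rik, Sp140 and Pdc had both. The H3K9me1 regions at these genes were between 2.25 kb (Olfr1410) and 58.5 kb (Pdc) wide. Sp100, Sp110, Sp140 and G530012D18Rik lie in a family of related copies, and the olfactory receptors are likewise related in sequence, so the placement of reads among them is uncertain and was not tested.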

How the data were processed

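ChIP-seq reads for H3K9me1, H3K9me2, H3K9me3 and input (2 replicates each) had been aligned by the authors to mm10 (GRCm38) with BWA 0.7.1, the version in the submitters' processing notes, and regions called with histoneHMM. The deposited lists, 1 per mark, hold positions only. How replicates and input entered the call, and its threshold, were not given in the sources used here. Input was not analysed here. Read depth is unknown from the lists.

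Members and gene lists were chosen with earlier results of these data known. Positions were taken as 1-based with the end included, and 0 fell off the 750 bp grid. Genes were from GENCODE M21 and sequence from GRCm38, the build of the lists. Interval arithmetic was tested on simulated data. Named genes were the 8 with most H3K9me1 bases and the 8 with the largest covered share among genes of at least 20 kb. Added to these were up to 10 genes with H3K9me1 and another mark near a start site, and up to 4 marked genes per list. Genes in named regions were included too (the widest regions and clusters, the largest overlaps and the longest empty stretches). Further list genes are named from counts, and 1 named gene and 1 sequence are not reported here. Alternatives covered region width, promoter window, start sites, overlap rule, distance, chromosome and 0-based starts. Computation used NumPy 2.4.6 in Python 3.11.15, with SciPy 1.17.1 for rank correlations, and plots were drawn with Matplotlib 3.10.9.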

Additional observations from a re-analysis of the deposited data

How the results depend on the processing

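No paired analysis was possible because each mark has a single list without replicate columns, and for the same reason no replicate was left out. No result changed direction in a test, since none was made, and the alternatives show how far each share moves. Reading starts as 0-based left every one of the values at the precision printed.

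The share of H3K9me1 regions at a promoter (26.9%) was 23.9% with a window of 500 bp, 35.2% with 2 kb, 20% with protein-coding genes only, 14.2% with the gene's 5′ end only, 30.3% for regions of at least 2 kb and 42.1% for those of at least 5 kb. The share of genes with H3K9me1 near a start site (20.8%) was 18.5%, 25.9%, 30.1%, 13.2%, 19.4% and 14.5% under the same alternatives in that order, 15.3% on chromosome 1 and 25.7% on chromosome 2. By the class of the middle base, 82.5% of regions were intronic or intergenic, against 47.5% by the first class touched. The share meeting H3K9me2 (10.1%) was 7.31% when at least 50% of the region had to be shared, 3.41% with 50% of both and 9.19% with both lists of at least 5 kb. For H3K9me3 (3.92%) these were 3.02%, 1.27% and 3.31%, with 5.68% on chromosome 1 and 2.97% on chromosome 2. The share of H3K9me1 bases in H3K9me2 (8.07%) was 9.32% on chromosome 1, 7.42% on chromosome 2 and 7.28% without the widest cluster of chromosome 1. For H3K9me3 (3.33%) it was 5.96%, 1.99% and 2.61%. The alternatives for these base shares, and the one without the cluster throughout, were chosen after seeing the data. The share with another region within 10 kb (75.6%) was 41.4% within 3 kb, 92.7% within 30 kb, 71.8% and 59.1% for regions of at least 2 and 5 kb, and 65.0% and 81.3% on chromosomes 1 and 2. Gene starts covered (8.88%) came to 6.69% with regions of at least 5 kb, 6.71% on chromosome 1 and 10.3% on chromosome 2, and gene ends covered (25.1%) to 19.9%, 20.4% and 28.2%, both also chosen after seeing the data, so starts stayed below ends under each.

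Each mark is 1 map of 1 clonal line without replicate values, so variation between cultures, and regions missed for want of depth, cannot be read from the lists. The lists are very uneven between chromosomes. Region width stood in for a stricter calling threshold. Neighbouring regions and genes are not independent, and the 750 bp grid limits every distance and overlap.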
